A study of Mus musculus with 48 samples.

Results

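The genes described here are 10 genes of transforming growth factor beta (TGF-beta) signalling and its targets, taken by symbol from a table of 47561 genes measured by RNA sequencing in mouse lungs. They were the ligands Tgfb1, Tgfb2 and Tgfb3, the activin subunit Inhba, the receptors Tgfbr1 and Tgfbr2, the signal transducer Smad3, the inhibitors Smad7 and Bambi, and the target gene Ctgf, which current annotation lists as Ccn2. All 10 symbols were found, each in 1 row. The genes were taken by name, with earlier results of these data known.

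Lung RNA came from 48 adult mice, 3 in each of 16 groups formed by strain (C3H/HeN, here C3H, or C57Bl/6, here C57B), sex, injection and air. Each mouse received 1 intraperitoneal injection, either saline or 25 mg/kg of ATG (aurothioglucose, a gold-containing inhibitor of thioredoxin reductase). It was then kept in room air or in hyperoxia, at least 95% oxygen, for 96 h. The control group was therefore saline in room air, and the other groups were saline in hyperoxia, ATG in room air, and ATG in hyperoxia. The 4 groups of each condition were C3H males (C3HM), C3H females (C3HF), C57B males (C57BM) and C57B females (C57BF), and C3H and C57B are inbred strains. The labels name no transgene, and each mouse carries its own number, so no mouse of one group is paired with a mouse of another. The substrain of the C57B mice is named differently in the labels, the series description and the paper. The series description also gives ATG to every mouse, so the saline groups rest on the sample labels.

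TGF-beta is secreted in a latent form and, once activated, binds a complex of a type II and a type I receptor kinase on the cell surface. The type I receptor phosphorylates Smad2 and Smad3, which enter the nucleus with Smad4 and change transcription of genes of matrix, adhesion and growth control. Smad7 blocks the type I receptor inside the cell and Bambi is a decoy receptor without a kinase domain. In the lung the pathway is known for its part in alveolar development, wound repair and fibrosis.

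Measured levels are FPKM, fragment numbers normalized for transcript length and library size, so values of different genes can be set on 1 scale. Differences between conditions are on the log2(FPKM + 1) scale, which understates the change of genes at low levels, and were tested with limma across all genes that reached 1 FPKM in 3 or more of the mice in the fit. A gene passed the test when its p-value, adjusted by the Benjamini-Hochberg method over all genes tested, was under 0.05. The sum of FPKM per library was between 510933 and 748290, with a median of 578563. Scgb1a1, a secretory protein of club cells, took between 1.20% and 30.2% of that sum. Of the 3 C3HM mice given saline in room air, mice 1 and 3 were left out together in a check chosen after the data were seen. That check leaves 1 mouse in the group. Most of the members' fitted differences and of the counts that rest on this group are given with and without them. Absolute sequencing depth is unknown, so the error given is the spread between mice. The labels name no sequencing batch.

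Promoter sequences of 6 members, the 250 bases before an annotated start, were taken from RefSeq on GRCm38.p6 (Tgfb1, Tgfb2, Inhba, Tgfbr1, Tgfbr2 and Smad3, with 2 starts for Tgfbr1). The sequences of Tgfb2 and Tgfbr2 are shown because their hyperoxia responses differed between the strains in at least 1 set of mice, and that of Inhba because it had the largest ratio of levels between hyperoxia and room air among the 10 genes. Capitals mark CAGAC, the reverse complement of GTCTG, a short sequence to which Smad3 and Smad4 are known to bind. The Tgfb2 promoter is chr1:186705990-186706239 on the reverse strand, the Tgfbr2 promoter is chr9:116175364-116175613 on the reverse strand, and the Inhba promoter is chr13:16011601-16011850 on the forward strand.
Tgfb2: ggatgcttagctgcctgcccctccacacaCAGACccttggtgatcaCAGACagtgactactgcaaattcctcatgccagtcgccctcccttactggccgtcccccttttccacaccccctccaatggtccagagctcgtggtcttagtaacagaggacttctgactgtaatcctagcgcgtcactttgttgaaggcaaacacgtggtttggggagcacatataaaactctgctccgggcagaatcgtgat
Tgfbr2: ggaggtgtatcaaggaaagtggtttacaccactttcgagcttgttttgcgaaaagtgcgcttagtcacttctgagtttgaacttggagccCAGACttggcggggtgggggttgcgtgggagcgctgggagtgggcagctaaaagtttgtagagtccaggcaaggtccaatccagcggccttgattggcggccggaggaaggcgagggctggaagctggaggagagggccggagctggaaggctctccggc
Inhba: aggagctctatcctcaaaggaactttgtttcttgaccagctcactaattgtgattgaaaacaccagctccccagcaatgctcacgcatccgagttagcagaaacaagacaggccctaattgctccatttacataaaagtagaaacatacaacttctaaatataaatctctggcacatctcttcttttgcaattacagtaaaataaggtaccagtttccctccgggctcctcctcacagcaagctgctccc
CAGAC occurred at positions -221 and -204 of Tgfb2, at -160 of Tgfbr2 and at -203 of 1 start of Tgfbr1, counted from the annotated start. GTCTG, on either strand, was found in 42.2% of 32851 promoters of this length, so a match is common. No match to TGANTCA (AP-1), TGACGTCA (CRE), GTCTAGAC or GGAATG (TEAD) was found on either strand of the 6 members' promoters, and these were found in 6.75%, 1.55%, 0.167% and 12.6% of all promoters. A match is a description of letters and was not read as a binding site.

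The genes lie on 8 autosomes of GRCm38, the assembly also named mm10. Tgfb1 is at chr7:25687002-25705077 on the forward strand, Tgfb2 at chr1:186622792-186705989 on the reverse strand and Tgfb3 at chr12:86056745-86079041 on the reverse strand. Inhba is at chr13:16011851-16031621 on the forward strand. Tgfbr1 is at chr4:47353222-47414931 on the forward strand and Tgfbr2 at chr9:116084293-116175360 on the reverse strand. Smad3 lies on the same chromosome as Tgfbr2, at chr9:63646767-63757994 on the reverse strand. Smad7, at chr18:75367529-75395935, and Bambi, at chr18:3507923-3516404, lie on the forward strand of another shared chromosome. Ctgf is the shortest of these genes, at chr10:24595442-24598683 on the forward strand. All are annotated as protein coding. Exons of Ctgf overlap those of Gm15270 on the opposite strand, and 19.9% of the 30-base sequences of Ctgf transcripts also occur in opposite-strand transcripts of other genes. For Tgfb3 that share was 10%, through Gm37804 and Gm48008, and for the other members it was at most 2.3%. How strand was handled in the counting is not given in the sources used here, so reads from the sequence that Ctgf shares with Gm15270 cannot be told apart.

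In control lungs, given saline in room air, the target gene was the most abundant of the 10 and the activin subunit the least. The mean FPKM was 90.7 ± 35.7 for Ctgf, 57.3 ± 15.5 for Tgfbr2 and 41.7 ± 8.71 for Tgfb1 (SD, n = 12 mice, as for all means over an injection and air). Smad7 (18.0 ± 3.67), Tgfb3 (17.3 ± 3.98), Tgfb2 (11.9 ± 3.61) and Tgfbr1 (10.8 ± 2.58) came next, and Smad7 and Tgfb3 differed by less than 1 SD, as did Tgfb2 and Tgfbr1. Smad3 (8.49 ± 2.82), Bambi (5.42 ± 0.948) and Inhba (0.300 ± 0.219) followed. Tgfbr2 was therefore more abundant per length than Tgfbr1, with which it forms the receptor complex, in all 12 lungs, since the lowest Tgfbr2 value was 27.6 and the highest Tgfbr1 value was 14.8. No Inhba value reached 1 FPKM in room air, where the highest of 24 mice was 0.813.

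**Figure D1:**
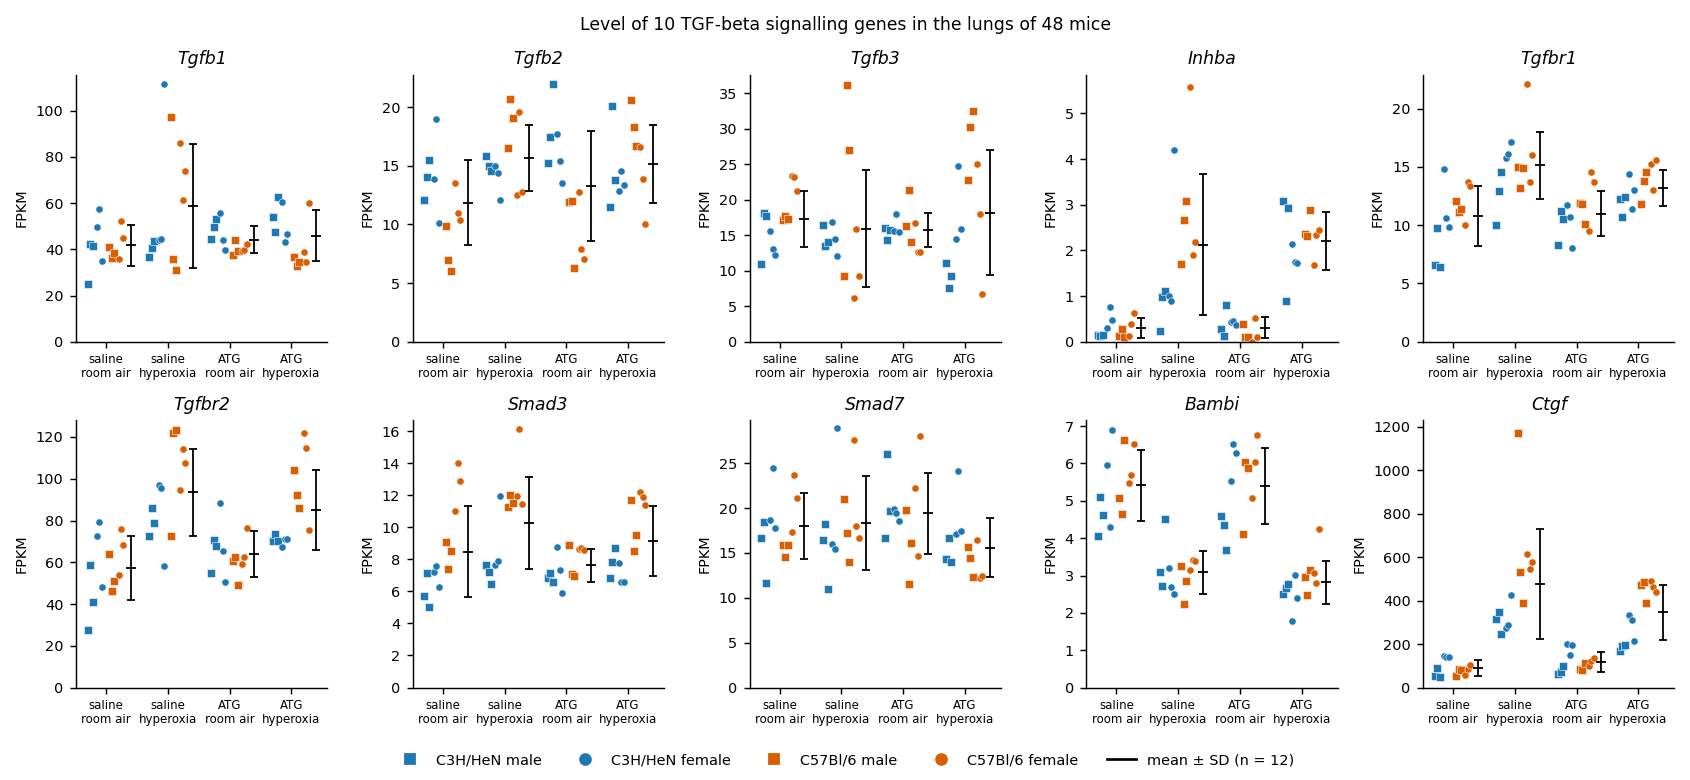
FPKM of each of the 10 genes in all 48 mice (y axis, linear, from 0) by injection and air, with color for strain, marker shape for sex, and a bar for the mean ± SD of 12 mice. Ctgf and Inhba are higher and Bambi is lower in hyperoxia with either injection, and for Ctgf the C57B mice in hyperoxia lie mostly above the C3H mice.

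The effect of hyperoxia was first measured in the 24 mice given saline. Ctgf, a matricellular protein that promotes matrix production, rose to 5.26 times its level in room air, and Inhba, which forms activin A, rose to 7.09 times its level. Both receptors, Tgfb2 and Smad3 rose by smaller amounts, and the decoy receptor Bambi fell. In all, 6 of the 10 genes passed the test as higher and 1 as lower, against 60.1% of the 16321 genes tested (31.8% higher and 28.3% lower), so the share of members called was close to the share of all genes called. Without C3HM mice 1 and 3, 5 passed as higher and 1 as lower. The median log2 difference was 0.40 over the members and 0.01 over all genes tested. All 10 passed the filter on low values, but Inhba passed it only through its hyperoxia mice, so its difference could only be upward. In bulk lung RNA, a larger number of cells of a type and more RNA per cell cannot be told apart.

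Ctgf in room air was 51.3, 88.7 and 47.4 in C3HM, 145.8, 141.1 and 138.4 in C3HF, 54.3, 87.6 and 82.0 in C57BM, and 58.3, 87.4 and 105.7 in C57BF. In hyperoxia it was 313.5, 348.4 and 246.3 in C3HM, 276.0, 286.6 and 424.0 in C3HF, 1173, 531.9 and 387.9 in C57BM, and 616.2, 543.1 and 575.3 in C57BF. All 12 hyperoxia mice were above all 12 room air mice, a separation seen for 5.61% of all genes tested. The log2 difference was 2.34 ± 0.16 (SE, adjusted p = 1.97e-10), which placed Ctgf at percentile 99.5 of all genes. Without mouse 19, the C57BM mouse at 1173, and without any other single mouse, the difference stayed between 2.23 and 2.43.

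Among the ligands, Inhba in saline mice ranged from 0.112 to 0.754 in room air (median 0.218) and from 0.231 to 5.57 in hyperoxia (median 1.80). No room air value reached 1 FPKM, so Inhba passed the filter only through its hyperoxia mice and had to differ. The log2 difference was 1.13 ± 0.17 (SE, adjusted p = 9.82e-06), and 11 of 12 hyperoxia mice were above every room air mouse. The exception was C3HM mouse 7 at 0.231, and the highest values, 5.57 and 4.19, were in C57BF mouse 43 and C3HF mouse 33. Tgfb2 ranged from 6.06 to 19.0 in room air (median 11.5) and from 12.1 to 20.7 in hyperoxia (median 15.0). Its log2 difference of 0.41 ± 0.10 passed the test (SE, adjusted p = 0.00168), although 9 of the 12 hyperoxia mice lay within the room air range.

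Tgfb1, the most abundant of the 3 TGF-beta ligands, had a mean of 58.8 ± 26.9 FPKM in hyperoxia and 41.7 ± 8.71 in room air. The difference of 0.39 ± 0.18 did not pass the test (SE, adjusted p = 0.0631), and it passed in the fit of all 48 mice (adjusted p = 0.0181) and without any 1 of 4 mice (C57BM mouse 20 or 21, C3HF mouse 31 or 32; adjusted p between 0.0258 and 0.0436). The spread among hyperoxia mice was wide, with 5 mice above every room air mouse and a range from 30.9 to 111.3. Tgfb3 likewise spread from 6.10 to 36.2 in hyperoxia, against 10.9 to 23.4 in room air, and its difference of -0.22 ± 0.17 did not pass (SE, adjusted p = 0.283). For both genes the SD in hyperoxia was larger than in room air, 26.9 against 8.71 for Tgfb1 and 8.23 against 3.98 for Tgfb3.

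The 5 saline hyperoxia mice with the highest Tgfb1 were also the 5 with the highest summed FPKM of 6 neutrophil markers (S100a8, S100a9, Ly6g, Csf3r, Cxcr2 and Mmp9). C3HF mouse 33 had a Tgfb1 FPKM of 111.3 and a marker sum of 5584, and C57BM mouse 19 had 97.0 and 4035. In C57BF, mice 43, 45 and 44 had Tgfb1 values of 86.1, 73.9 and 61.5 and marker sums of 3633, 3659 and 1890. The other 7 mice had Tgfb1 values between 30.9 and 44.4 and marker sums between 132.4 and 1273. Tgfb3 was between 6.10 and 15.9 in the first 5 mice and highest, at 36.2 and 27.0, in C57BM mice 20 and 21, whose marker sums were 241.7 and 132.4. Among other conditions, C57BM given ATG in room air had marker sums of 1448, 1669 and 3386 and Tgfb1 values of 37.4, 44.1 and 39.4. In ATG mice in hyperoxia the sums ranged from 144.3 to 2634 and Tgfb1 from 32.8 to 62.6. The part of neutrophils in the Tgfb1 level was not tested.

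**Figure D2:**
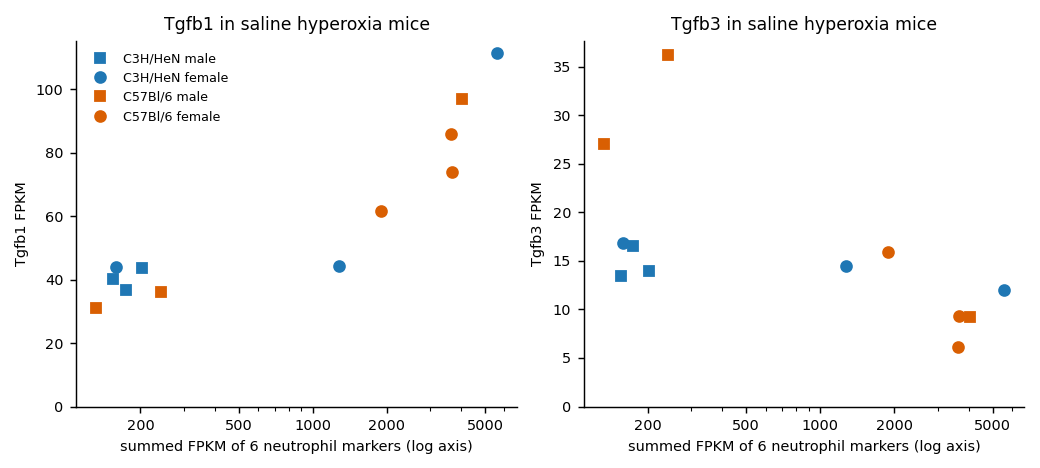
Tgfb1 (left) and Tgfb3 (right) FPKM of the 12 saline mice in hyperoxia (y axes, linear) against the summed FPKM of 6 neutrophil markers (x axis, log scale), with each point 1 mouse. The 5 mice with a marker sum of 1890 or more have Tgfb1 values of 61.5 or more, and the other 7 lie between 30.9 and 44.4.

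Shares of the 3 TGF-beta ligands in their summed FPKM were compared by an exact permutation test within each strain, 6 hyperoxia against 6 room air saline mice, two-sided, in 6 tests. In C57B the summed FPKM was 71.1 ± 9.78 in room air and 98.4 ± 15.0 in hyperoxia, and in C3H it was 70.6 ± 15.2 and 82.4 ± 26.1 (SD, n = 6). In room air Tgfb1 made up 58.4% of the sum in C57B and 58.8% in C3H, Tgfb3 28.1% and 21.1%, and Tgfb2 13.4% and 20.2%. In hyperoxia in C57B, Tgfb3 had a share of 18.9% ± 14.5 (SD, n = 6, exact p = 0.145), Tgfb1 of 63.4% ± 19.7 (SD, n = 6, exact p = 0.561) and Tgfb2 of 17.7% ± 5.44 (SD, n = 6, exact p = 0.117). These were -9.23, 4.99 and 4.25 percentage points from room air, and after adjustment over the 6 tests the exact p was 0.435, 0.675 and 0.435. In C3H the differences were between -2.12 and 3.42 points, with an exact p between 0.470 and 0.675, so no share passed the threshold. Without C57BM mouse 20, the mouse highest for Tgfb3, the Tgfb3 share in C57B differed by -13.2 percentage points, with an unadjusted exact p of 0.0303.

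Both receptors rose in saline mice. Tgfbr2, the type II receptor that binds the ligand, ranged from 27.6 to 79.2 in room air (median 56.3) and from 58.2 to 123.2 in hyperoxia (median 95.1). Its log2 difference was 0.72 ± 0.13 (SE, adjusted p = 8.38e-05), and 8 of 12 hyperoxia mice were above every room air mouse. Tgfbr1, the type I receptor kinase, ranged from 6.45 to 14.8 in room air (median 10.9) and from 10.0 to 22.1 in hyperoxia (median 15.0). Its log2 difference was 0.46 ± 0.09 (SE, adjusted p = 0.000262), with 7 of 12 hyperoxia mice above the room air range.

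Smad3, which carries the signal from the receptor to DNA, ranged from 5.02 to 14.0 in room air (median 7.48) and from 6.43 to 16.1 in hyperoxia (median 11.4). The log2 difference of 0.26 ± 0.08 passed the test (SE, adjusted p = 0.0110), but not when C3HM mice 1 and 3 were left out (0.20, adjusted p = 0.0618). The groups overlapped widely. Smad7 had a mean of 18.0 FPKM in room air and 18.4 in hyperoxia, a log2 difference of 0.01 with a 95% interval from -0.25 to 0.26, and its sign was negative after quantile normalization, after median ratio scaling and without mice 1 and 3. Bambi ranged from 4.05 to 6.90 in room air (median 5.29) and from 2.23 to 4.52 in hyperoxia (median 3.11). Its log2 difference was -0.65 ± 0.09 (SE, adjusted p = 3.40e-06), and 11 of 12 hyperoxia mice were below every room air mouse, the exception being C3HM mouse 9 at 4.52.

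Without C3HM mice 1 and 3 the log2 differences in saline mice were 2.20 for Ctgf, 1.14 for Inhba, 0.41 for Tgfb2, 0.59 for Tgfbr2, 0.38 for Tgfbr1 and -0.68 for Bambi, and each still passed the test. Tgfb1 was then at 0.33 (adjusted p = 0.169) and Tgfb3 at -0.28 (adjusted p = 0.227), and neither passed.

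The 24 mice given ATG share no mouse with the saline mice and gave a separate measurement of hyperoxia. Inhba, Ctgf, both receptors and Smad3 rose and Bambi and Smad7 fell, which made 5 higher and 2 lower, against 61.8% of 16206 genes tested (35.8% higher and 26% lower). The median log2 difference was 0.22 over the members and 0.06 over all genes. Counts of higher members depended on the scaling, with 2 higher after quantile normalization and 3 after median ratio scaling, and 2 lower after either. Tgfbr1 and Smad3 were not called after either scaling (adjusted p between 0.0524 and 0.120), nor Tgfbr2 after quantile normalization (adjusted p = 0.109).

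Ctgf in ATG mice ranged from 63.3 to 198.9 in room air (median 106.0) and from 169.6 to 489.9 in hyperoxia (median 359.8). The log2 difference was 1.53 ± 0.09 (SE, adjusted p = 1.30e-11), and 9 of 12 hyperoxia mice were above every room air mouse. The 3 that were not were the C3HM mice. Inhba ranged from 0 to 0.813 in room air (median 0.320) and from 0.884 to 3.08 in hyperoxia (median 2.33), with a log2 difference of 1.29 ± 0.12 (SE, adjusted p = 1.94e-08). Its groups did not overlap, as for 8.82% of all genes tested, but no room air value reached 1 FPKM, so here too Inhba passed the filter only through its hyperoxia mice and had to differ. Bambi ranged from 3.68 to 6.76 in room air (median 5.71) and from 1.79 to 4.23 in hyperoxia (median 2.79), with a log2 difference of -0.74 ± 0.08 (SE, adjusted p = 1.13e-07).

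Tgfbr2 in ATG mice had a mean of 84.9 ± 19.2 FPKM in hyperoxia and 64.0 ± 11.0 in room air (log2 difference 0.39, adjusted p = 0.000751). Tgfbr1 had means of 13.2 ± 1.56 and 11.0 ± 1.94 (0.25, adjusted p = 0.00878), and Smad3 of 9.14 ± 2.17 and 7.63 ± 1.03 (0.21, adjusted p = 0.00955). Smad7, the inhibitor that TGF-beta itself is known to induce, was at 15.6 ± 3.29 in hyperoxia and 19.4 ± 4.56 in room air. Its log2 difference was -0.29 ± 0.11 (SE, adjusted p = 0.0238), and it did not pass without C57BM mouse 16 or C57BF mouse 42 (adjusted p = 0.0503 in each case). Tgfb1 had a log2 difference of 0.03 (adjusted p = 0.772), Tgfb2 of 0.23 (adjusted p = 0.102; 0.0347 without C57BF mouse 40) and Tgfb3 of 0.06 (adjusted p = 0.769). The signs of Tgfb1 and Tgfb3 were negative after quantile normalization and after median ratio scaling. The spread of Tgfb1 in hyperoxia was 11.0 FPKM here (SD, range 32.8 to 62.6), against 26.9 in saline mice.

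**Figure D3:**
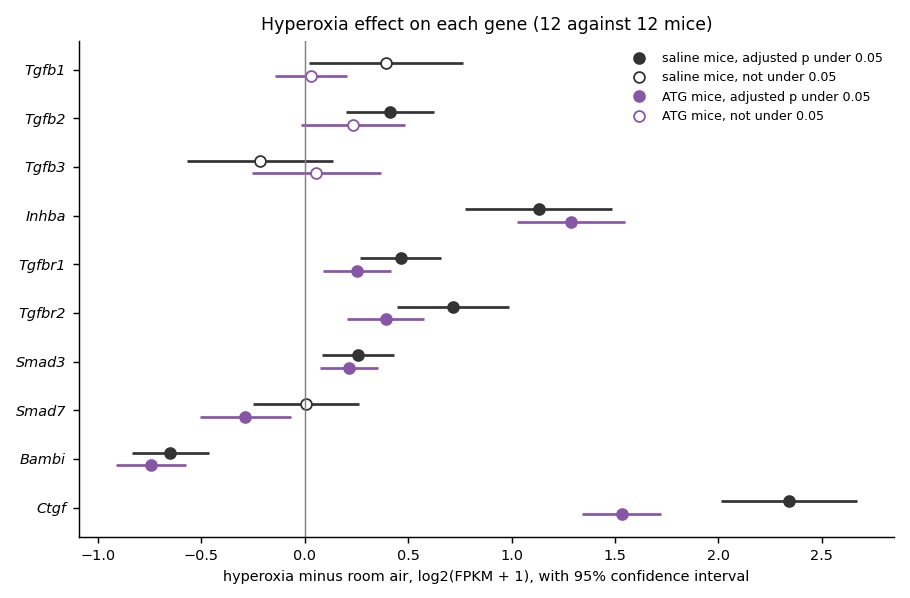
Difference between hyperoxia and room air on the log2(FPKM + 1) scale (x axis) for each of the 10 genes in saline mice and in ATG mice, as the limma estimate with its 95% confidence interval, filled where the adjusted p was under 0.05. Ctgf is at 2.34 in saline mice and 1.53 in ATG mice, and Bambi is below 0 in both.

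The question whether the strains respond differently was addressed by the interaction of strain and hyperoxia, the signed log2 difference in C3H minus that in C57B. A gene that fell less in C3H than in C57B therefore also counts as higher in C3H. In saline mice Ctgf rose more in C57B, to 8.05 times its room air level, than in C3H, to 3.09 times, and Tgfb2 rose in C57B while its mean in C3H was 14.1 in room air and 14.5 in hyperoxia. These were 2 of the 10 members, both lower in C3H, against 11.5% of 16321 genes called in either direction and 2.81% called as lower in C3H. Of the 1880 genes called, 75.6% had a higher signed difference in C3H than in C57B on this scale. That share was 50.5% after quantile normalization and 45.7% after median ratio scaling, and the median over all genes was 0.15. Both members were called after either scaling.

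Ctgf in saline mice had a mean of 79.2 ± 19.5 FPKM in room air and 637.9 ± 273.4 in hyperoxia in C57B, and of 102.1 ± 45.8 and 315.8 ± 63.3 in C3H (SD, n = 6). The log2 difference was 2.94 in C57B (SE 0.22, adjusted p = 1.84e-09) and 1.74 in C3H (SE 0.22, adjusted p = 6.21e-06), the latter 1.46 without mice 1 and 3. All saline hyperoxia mice were above all saline room air mice, so the split of 6 against 6 within each strain was already given. The share of all genes with such a split was not counted. The interaction, C3H minus C57B, was -1.20 ± 0.32 (SE, 95% interval from -1.86 to -0.54, adjusted p = 0.0190), and it stayed past the threshold without any single mouse (adjusted p between 0.00510 and 0.0376) and without mice 1 and 3 together (-1.48, adjusted p = 0.0149).

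Tgfb2 in saline mice had a mean of 9.63 ± 2.74 FPKM in room air and 16.9 ± 3.55 in hyperoxia in C57B, where 4 of 6 hyperoxia mice were above every room air mouse. The log2 difference was 0.77 ± 0.14 in C57B (SE, adjusted p = 0.000151) and 0.06 ± 0.14 in C3H (SE, adjusted p = 0.801; 0.05 without mice 1 and 3), where the sign was negative after quantile normalization and after median ratio scaling. The interaction was -0.71 ± 0.20 (SE, adjusted p = 0.0288). It did not pass without mice 1 and 3 together (adjusted p = 0.0610) or without any 1 of 6 single mice (C3HM mouse 3, C57BM mice 14 and 15, C3HF mouse 26 and C57BF mice 39 and 44; adjusted p between 0.0501 and 0.0559).

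The interaction did not pass for the other 8 members. In C3H 4 members were higher and 1 lower, against 37.8% of genes tested (25.3% higher and 12.5% lower, so that 67.0% of calls were higher). In C57B 5 were higher and 1 lower, against 55.5% (25.5% higher and 30% lower). The share of higher calls in C3H was 51.3% after quantile normalization and 48.7% after median ratio scaling. Without mice 1 and 3, which leaves 1 mouse in that group, the C3H differences were 1.46 for Ctgf, 0.74 for Inhba, 0.39 for Tgfbr1 and 0.37 for Tgfbr2. With all mice that of Tgfbr2 was 0.63. The calls for Inhba, Tgfbr1 and Tgfbr2 in C3H depended on including mice 1 and 3. For Inhba the difference itself did not fall without them (0.72 with all mice, 0.74 without). Inhba rose to 2.85 ± 1.43 FPKM in C57B (log2 difference 1.54, adjusted p = 2.04e-05) and to 1.40 ± 1.40 in C3H (0.72, adjusted p = 0.0228), the last not without C3HM mouse 8 or 9 or C3HF mouse 25 or 33 (adjusted p between 0.0517 and 0.0728). As over both strains, Inhba passed the filter in this fit only through hyperoxia mice. Its interaction of -0.82 ± 0.34 did not pass (SE, adjusted p = 0.121; -0.80 and 0.225 without mice 1 and 3), but passed without C3HF mouse 33, whose Inhba FPKM was 4.19 (-1.05, adjusted p = 0.0183). Bambi fell in both strains, by 0.72 in C57B (adjusted p = 7.47e-05) and by 0.58 in C3H (adjusted p = 0.00128) on the log2 scale, with -0.64 in C3H without mice 1 and 3. Tgfbr1 rose by 0.37 in C57B (adjusted p = 0.0243; 0.0748 without C57BF mouse 37 and 0.0836 without C57BF mouse 43) and by 0.56 in C3H (adjusted p = 0.00234).

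In ATG mice the interaction had the same sign for Ctgf and Tgfb2. Ctgf went from 106.1 ± 21.5 FPKM in room air to 456.3 ± 38.2 in hyperoxia in C57B and from 129.8 ± 60.3 to 235.9 ± 68.2 in C3H (SD, n = 6). The interaction was -1.16 ± 0.18 (SE, adjusted p = 0.000335), and every C57B hyperoxia mouse, the lowest at 387.6, was above every C3H hyperoxia mouse, the highest at 332.1. The share of all genes with such a split was not counted. Tgfb2 went from 9.65 ± 2.88 to 16.0 ± 3.68 in C57B and from 16.9 ± 2.94 to 14.4 ± 3.00 in C3H, and the interaction was -0.92 ± 0.24 (SE, adjusted p = 0.0157). Tgfbr2 went from 61.7 ± 8.78 to 99.2 ± 17.7 in C57B and from 66.3 ± 13.4 to 70.5 ± 1.93 in C3H, with an interaction of -0.56 ± 0.18 (SE, adjusted p = 0.0437). That call for Tgfbr2 was lost under 5 of 7 other settings and without any 1 of 17 of the 24 mice. For Tgfb3 the interaction passed without C57BF mouse 48 (-0.91, adjusted p = 0.00500). In all, 3 members were called in ATG mice, each as lower in C3H, against 5.04% of 16206 genes in that direction and 13.3% in either. Of the genes called, 62.2% had a higher signed difference in C3H (47.9% after quantile normalization and 46.3% after median ratio scaling).

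**Figure D4:**
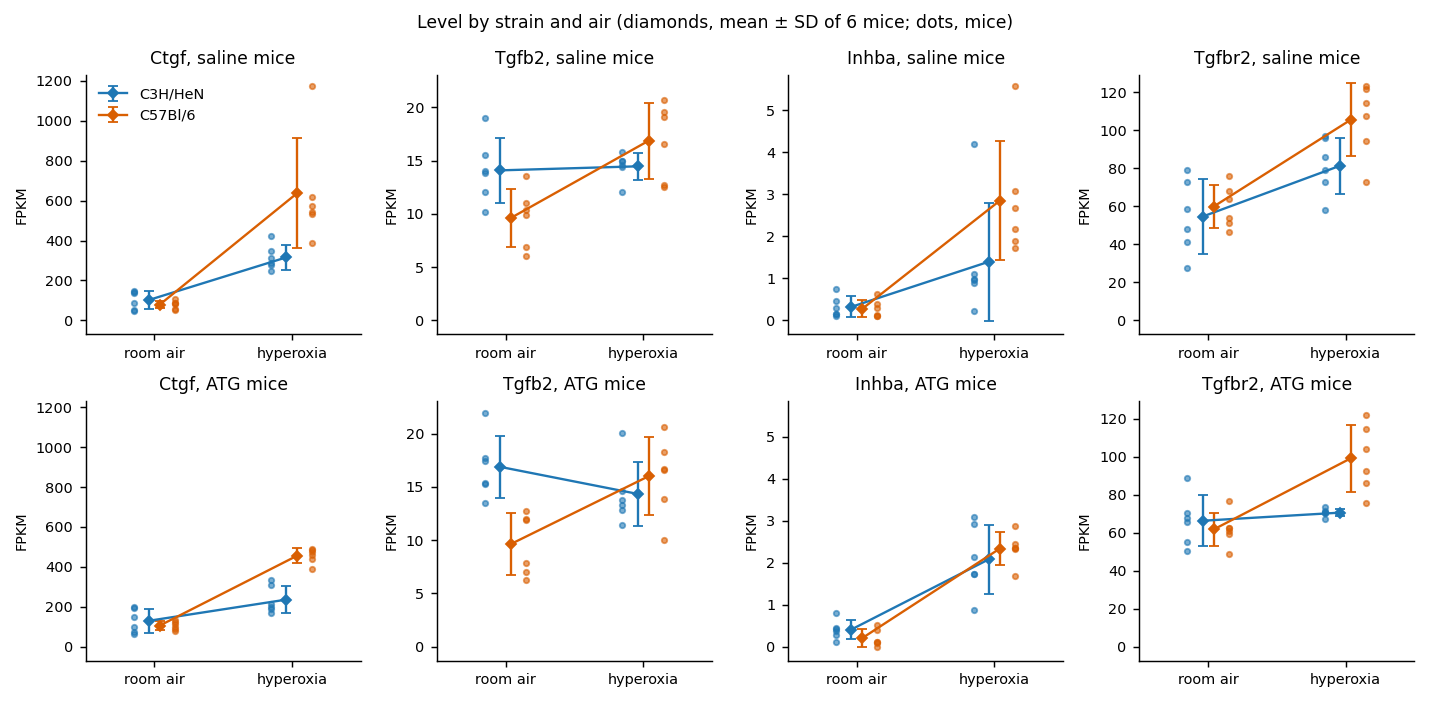
FPKM of Ctgf, Tgfb2, Inhba and Tgfbr2 (y axes, linear) in room air and hyperoxia for C3H and C57B, in saline mice (top) and ATG mice (bottom), with diamonds for the mean ± SD of 6 mice and dots for single mice. Ctgf rises more steeply in C57B in both rows, and Tgfb2 rises in C57B from 9.63 to 16.9 in saline mice and from 9.65 to 16.0 in ATG mice, while the C3H means are 14.1 and 14.5 in saline mice and 16.9 and 14.4 in ATG mice.

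Levels were then compared between strains within an air. In room air with saline, Smad3 was lower in C3H, at 6.48 ± 0.983 FPKM against 10.5 ± 2.61 in C57B (SD, n = 6). The log2 difference was -0.60 ± 0.11 (SE, adjusted p = 0.00434; -0.48 and 0.0304 without mice 1 and 3), and 5 of 6 C3H mice were below every C57B mouse. Tgfb3 was lower in C3H as well, 14.6 ± 2.97 against 20.0 ± 2.96, with a log2 difference of -0.44 (adjusted p = 0.0414; -0.32 and 0.0721 without mice 1 and 3) that was lost in 5 of 8 other settings and without any 1 of 8 of the 12 mice. These were 2 of the 9 members tested, both lower, against 7.87% of 15546 genes in that direction and 11.8% in either, of which 33.2% were higher in C3H (50.3% after quantile normalization and 48.5% after median ratio scaling). Tgfb2 had means of 14.1 in C3H and 9.63 in C57B and missed the threshold (0.52, adjusted p = 0.0537; 0.53 and 0.144 without mice 1 and 3), though it passed after quantile normalization, after median ratio scaling and in the fit of 48 mice (adjusted p between 0.0205 and 0.0283) and without C3HM mouse 2, C57BM mouse 13 or C3HF mouse 27 (adjusted p between 0.0210 and 0.0471). Inhba was under the filter in room air and was not tested there.

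In hyperoxia with saline, Ctgf and Smad3 were lower in C3H, 2 of 10 members against 12.2% of 15046 genes in that direction and 28.2% in either. Ctgf was at 315.8 against 637.9 FPKM (log2 difference -0.95 ± 0.23, SE, adjusted p = 0.0113), and 5 of 6 C3H mice were below every C57B mouse. Smad3 was at 8.12 ± 1.94 against 12.4 ± 1.85 (-0.57 ± 0.13, SE, adjusted p = 0.00651), again with 5 of 6 C3H mice below all C57B mice and the exception, C3HF mouse 33, at 11.9. Inhba had means of 1.40 and 2.85 and did not pass (-0.77, adjusted p = 0.0778), but passed without mouse 33 (-1.01, adjusted p = 0.0120), after quantile normalization (adjusted p = 0.0415) and in the fit of 48 mice (adjusted p = 0.00494).

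ATG was compared with saline within an air. In room air none of the 9 members tested passed, against 3 genes in all (0.0185% of 16228, with 1077 at an unadjusted p under 0.05 in limma). Ctgf in room air was at 118.0 ± 44.9 FPKM with ATG and 90.7 ± 35.7 with saline, a log2 difference of 0.39 ± 0.12 (SE, adjusted p = 0.580; 0.25 and 0.888 without mice 1 and 3). In hyperoxia none of the 10 passed, against 5.47% of 15860 genes, of which 71.1% were higher with ATG (46.3% after quantile normalization and 41.5% after median ratio scaling). Ctgf in hyperoxia was at 346.1 ± 126.6 with ATG and 476.9 ± 253.2 with saline. That difference of -0.42 ± 0.14 did not pass (SE, adjusted p = 0.0742), but passed after quantile normalization (adjusted p = 0.0453) and without C57BM mouse 21 (adjusted p = 0.0186).

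Fitted over all 48 mice, the rise of Ctgf with hyperoxia was smaller in ATG mice than in saline mice. The interaction of ATG and hyperoxia was -0.81 ± 0.19 (SE, 95% interval from -1.19 to -0.43, adjusted p = 0.0174) and was past the threshold without any single mouse (adjusted p between 0.00451 and 0.0333). It was not past it without C3HM mice 1 and 3 together (-0.67, adjusted p = 0.0593). Ctgf was the 1 member of 10 called, against 1.21% of 16994 genes called as lower and 2.77% in either direction. Of the genes called, 56.4% had a higher signed difference with ATG (34.9% after quantile normalization and 32.7% after median ratio scaling). For Inhba the interaction was 0.16 with a 95% interval from -0.28 to 0.59, and for Bambi -0.09 with an interval from -0.33 to 0.14 (0.15 and -0.061 without mice 1 and 3).

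Sex was compared in saline mice. In room air none of 9 members passed, against 0.669% of 15546 genes, of which 35.6% were higher in males (53.9% after quantile normalization and 55.6% after median ratio scaling). All 9 had lower means in males, for example 37.5 against 45.9 FPKM for Tgfb1 and 68.6 against 112.8 for Ctgf, and for Tgfb3 the sign of the log2 difference changed under both scalings and without C3HM mouse 1. The median log2 difference over all genes tested was also negative, at -0.117. It was -0.0077 after quantile normalization and -0.0061 after median ratio scaling. The share of all genes with lower means in males was not counted. For Ctgf the log2 difference, males minus females, was -0.69 ± 0.19 (SE, adjusted p = 0.0988), and it passed in the fit of 48 mice (adjusted p = 0.0177) and without C3HM mouse 2 (adjusted p = 0.00886), and was -0.41 without mice 1 and 3 (adjusted p = 0.402). Without mouse 2, Ctgf, Smad3, Smad7, Tgfbr1 and Tgfbr2 passed, in the fit of 48 mice Ctgf, Smad3 and Tgfbr2 passed, and without mice 1 and 3 no member did. Ctgf in C3HF was at 145.8, 141.1 and 138.4 and in C3HM at 51.3, 88.7 and 47.4, but the interaction of sex and strain did not pass for it (-1.07, adjusted p = 0.228; 0.0192 without mouse 2 and 0.858 without mice 1 and 3) or for any member. That interaction was called for 0 of 15546 genes with limma (2538 at an unadjusted p under 0.05). The interaction of sex and hyperoxia was called for no member, against 0.0368% of 16321 genes, and for Ctgf it was 0.69 ± 0.32 (SE, adjusted p = 0.259; 0.41 and 0.662 without mice 1 and 3). Without C57BM mouse 19 it passed for Tgfb3 (0.91, adjusted p = 0.0356). In ATG mice Ctgf in room air was 198.9, 148.0 and 196.3 in C3HF and 63.3, 71.9 and 100.4 in C3HM. The share of all genes that separate 3 mice from 3 in this way was not counted, and sex was not tested there.

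The other genes of the pathway were a list of 51 symbols, of which 50 were found in 1 row and 49 were tested for the hyperoxia effect. In saline mice 26 were higher, 10 lower and 13 not past the threshold, against 60.1% of all genes called (31.8% higher and 28.3% lower), with a median log2 difference of 0.22 against 0.01 over all genes. Without mice 1 and 3, 24 were higher and 11 lower. In ATG mice 25 were higher and 16 lower, against 61.8% of all genes (35.8% higher and 26% lower), with a median of 0.28 against 0.06. By role in saline mice, 7 of 13 other target genes rose and 4 fell, 4 of 6 intracellular inhibitors rose, and 4 of 6 other ligands and ligand traps rose and 1 fell. Of 9 genes of latency and activation 4 rose and 2 fell, of 9 other receptors 4 rose and 2 fell, and of 6 other Smads 3 rose and 1 fell. Under quantile normalization the counts in saline mice were 24 higher and 16 lower, and under median ratio scaling 24 higher and 14 lower.

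For 5 genes of the list the 12 hyperoxia and 12 room air saline mice did not overlap, 4 higher and 1 lower, against 5.61% and 2.13% of all genes. Cyr61, a matricellular relative of Ctgf, had means of 124.5 and 498.9 (1.96, adjusted p = 6.67e-09), and Edn1, the vasoconstrictor endothelin-1, of 18.2 and 72.6 (1.81, adjusted p = 6.18e-11). Fstl3, a secreted binding protein of activin, had means of 18.8 and 60.5 (1.62, adjusted p = 1.38e-11). Smurf1, a ubiquitin ligase that marks Smads for degradation, had means of 9.65 and 20.6 (1.02, adjusted p = 2.08e-09). Snai2, a transcriptional repressor linked to mesenchymal change, was the 1 gene of the 5 that fell, from 4.97 to 1.24 (-1.46, adjusted p = 4.74e-09).

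In ATG mice these 5 genes were called in the same directions, with log2 differences of 2.26 for Cyr61, 1.65 for Edn1, 1.24 for Fstl3, 0.68 for Smurf1 and -1.57 for Snai2. Further genes were chosen after their values were seen. Thbs1, which can activate latent TGF-beta, had means of 35.2 FPKM in room air and 328.5 in hyperoxia in saline mice (2.90, adjusted p = 5.46e-08). Fst, the activin-binding protein follistatin, had means of 1.13 and 16.1 (2.20, adjusted p = 2.14e-06), and Inhbb, which forms activin B, of 6.94 and 29.9 (1.84, adjusted p = 1.18e-07). Lrrc32, which anchors latent TGF-beta on the cell surface, had means of 13.3 and 28.5 (1.03, adjusted p = 1.55e-07), and Furin, which cleaves the ligand precursors, of 27.4 and 57.9 (1.01, adjusted p = 1.34e-07). Nox4, an NADPH oxidase induced by TGF-beta in fibroblasts, fell by 1.26 and Smad9, a Smad of the BMP branch, fell by 0.95 on the log2 scale (adjusted p = 0.000111 and 4.56e-07). Smad9 met the filter on low values through its room air mice, where the lowest saline value was 1.42 FPKM. Its saline mean in hyperoxia was 0.588, so the filter favored a fall.

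**Figure D5:**
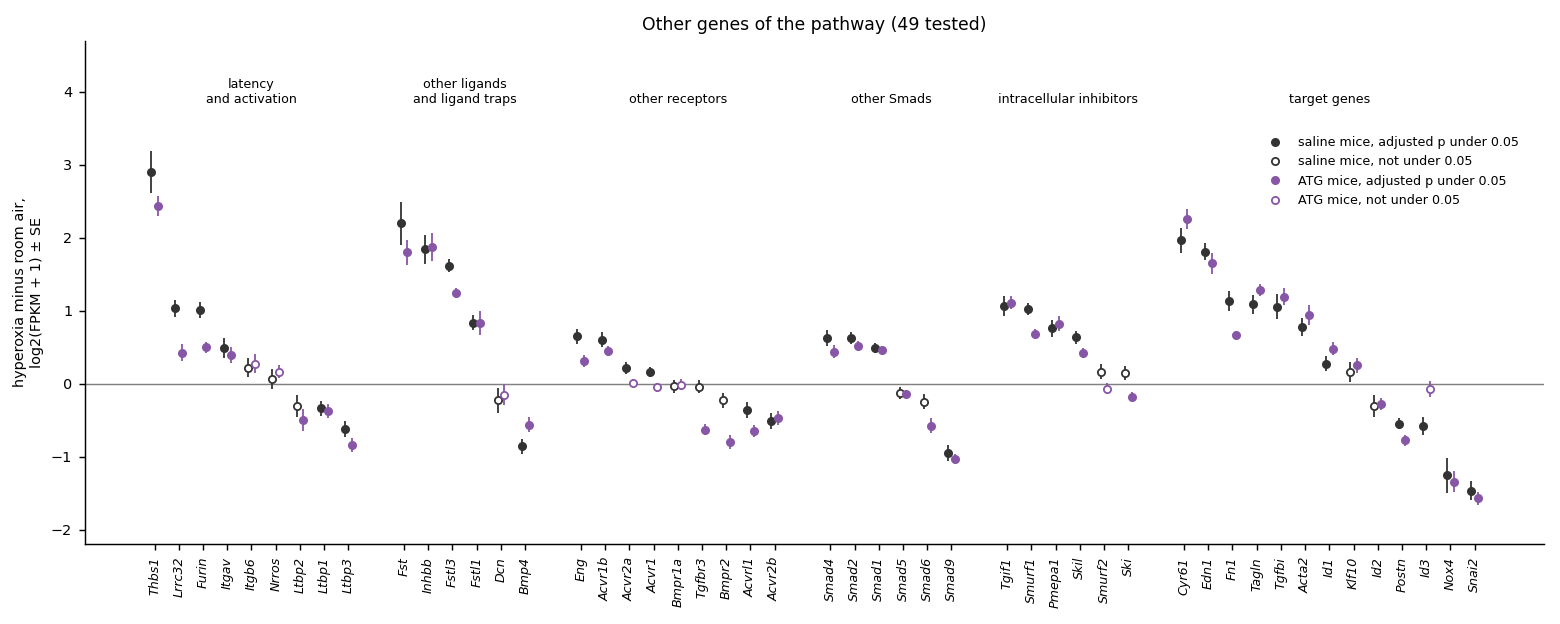
Difference between hyperoxia and room air (y axis, log2(FPKM + 1), estimate ± SE) for the 49 other genes of the pathway that were tested, grouped by role and ordered within each role by the saline value, in saline and ATG mice, filled where the adjusted p was under 0.05. Thbs1 at 2.90 and Fst at 2.20 are the highest in saline mice, and Snai2 at -1.46 is the lowest.

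Pathway genes that differed between the strains in their response to hyperoxia in saline mice were 7 of 49. Each had a lower signed difference in C3H, against 11.5% of all genes in either direction and 2.81% in this one. The count was 12 after median ratio scaling, 10 after quantile normalization and 11 in the fit of 48 mice, each again lower in C3H. Without C3HF mouse 33 it was 9 lower and 2 higher. The 5 largest were Fst at -2.46 (adjusted p = 0.0107), Edn1 at -1.58 (adjusted p = 0.000212), Fn1 at -1.41 (adjusted p = 0.00308), Lrrc32 at -1.37 (adjusted p = 0.000837) and Itgav at -1.33 (adjusted p = 0.00445), where Fn1 encodes the matrix protein fibronectin and Itgav an integrin subunit that takes part in activating latent TGF-beta. In ATG mice 5 of 49 had a higher and 8 a lower signed difference in C3H, against 13.3% of all genes in either direction (3 higher without C3HM mouse 12 and in the fit of 48 mice). The largest were Lrrc32 at -2.31, Tgfbi, a matrix protein induced by TGF-beta, at 2.05, Inhbb at 1.59, Edn1 at -1.52 and Fn1 at -0.99. Between the strains in room air 8 were higher and 2 lower in C3H, against 11.8% of all genes, with Tgfbi at -0.76 and Bmp4, a ligand of the BMP branch, at 0.72 as the largest. These counts were 5 and 1 without mice 1 and 3, 9 and 7 without C3HM mouse 2, and 9 and 4 in the fit of 48 mice, with 5 higher without C3HF mouse 25 and 1 lower without C57BM mouse 13. In hyperoxia 3 were higher and 18 lower, against 28.2% of all genes, with Fst at -2.34 and Bmp4 at 1.28 as the largest, and 5 were higher without C3HM mouse 9 and 6 in the fit of 48 mice. Other named differences in room air were 0.66 for Ltbp1, 0.66 for Fn1 and -0.65 for Inhbb, of which Ltbp1, Fn1 and Inhbb were each lost without mice 1 and 3 (adjusted p = 0.0922, 0.0532 and 0.107).

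With ATG in hyperoxia 5 pathway genes were lower, against 5.47% of all genes in either direction, namely Tgfbr3 (-0.44, adjusted p = 0.0116), the accessory TGF-beta receptor, Lrrc32 (-0.42, adjusted p = 0.0265), Fn1 (-0.36, adjusted p = 0.0446), Bmpr2 (-0.33, adjusted p = 0.0301) and Skil (-0.26, adjusted p = 0.0397). Of these, Tgfbr3 kept its call without any single mouse, while the others lost it without at least 1 mouse, and the count was 1 without C3HM mouse 8 and 3 with no filter. The interaction of ATG and hyperoxia was called for 4, against 2.77% of all genes, Lrrc32 (-0.61), Tgfbr3 (-0.59), Bmpr2 (-0.57) and Furin (-0.51), and of these only Tgfbr3 was called without C3HM mice 1 and 3. That count was 2 without C3HM mouse 8, 8 without C3HM mouse 2, 7 after median ratio scaling and 6 after quantile normalization. No pathway gene passed for ATG in room air, for sex in room air or for the interactions of sex. The counts for sex depended on C3HM mouse 2, without which 16 were lower and 2 higher in males, and 8 were lower in the fit of 48 mice. Without mouse 2 the interaction of sex and strain was called as lower for 6 and as higher for 3, and that of sex and hyperoxia as higher for 2. Without C57BM mouse 19 that of sex and hyperoxia was called as lower for 3.

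Cell type markers also differed with hyperoxia in saline mice, and each list is given by its summed FPKM and by the genes that passed the test, against the 60.1% of all genes called. Lung epithelial lists were lower. The 3 club cell markers summed to a mean of 120775 in room air and 22976 in hyperoxia, with 3 of 3 lower, the 6 alveolar type 2 cell markers to 35638 and 10963, with 5 lower and 1 higher, and the 6 alveolar type 1 cell markers to 4133 and 2879, with 4 lower. The 6 cardiac muscle markers summed to 289 and 34.9, with 5 lower, the 4 B cell markers to 61.0 and 19.2, with 4 lower, and the 5 T cell markers to 31.1 and 14.9, with 5 lower. Lists of myeloid cells and smooth muscle were mostly higher. The 6 alveolar macrophage markers summed to 354 and 907.1, with 4 higher and 2 lower, the 6 markers of monocytes and injury macrophages to 211.1 and 546.9, with 4 higher, and the 6 smooth muscle markers to 248.5 and 458, with 4 higher. The smooth muscle list shares Acta2 (means of 68.2 and 119.8) and Tagln (105.7 and 238.2) with the target genes of the pathway list. Fn1 is shared between those target genes and the markers of monocytes and injury macrophages, so these lists are not independent of the pathway genes. The 6 neutrophil markers had sums between 128 and 731.1 in room air and between 132.4 and 5584 in hyperoxia, with 5 higher. The 6 fibroblast markers summed to 404.8 and 411.8, with 1 higher and 1 lower, and the 6 endothelial cell markers to 1528 and 1326, with 1 higher and 3 lower. Of 3 mesothelium and 6 platelet markers 1 each was lower. The defining markers of lung, Sftpc of type 2 cells, Scgb1a1 of club cells and Ager of type 1 cells, were above 0 in all 48 mice. The part of these shifts in the members' differences was not tested.

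The same sums were set out by strain, since Ctgf and Tgfb2 differed between the strains in their response to hyperoxia. In saline mice the alveolar macrophage sum was 449 ± 167.4 in room air and 1339 ± 414 in hyperoxia in C57B, and 259 ± 67.9 and 474.9 ± 211.6 in C3H (SD, n = 6), and the interaction of strain and hyperoxia was called for 3 of its 6 genes, 2 as higher and 1 as lower in C3H. The club cell sum was 120722 ± 27861 and 13315 ± 3805 in C57B, and 120827 ± 60838 and 32638 ± 5583 in C3H, with 3 of 3 genes called as higher. The smooth muscle sum was 231.3 ± 19.3 and 539.4 ± 159.5 in C57B, and 265.8 ± 72.3 and 376.6 ± 37.7 in C3H, and none of its 6 genes was called. The endothelial sum was 1285 ± 122.4 and 947.5 ± 126.3 in C57B, and 1770 ± 270.4 and 1704 ± 195.8 in C3H, with 3 of 6 called as higher. Called as higher were also 3 of 4 B cell, 3 of 5 T cell and 1 of 6 alveolar type 2 cell markers, and as lower 1 of 6 markers of monocytes and injury macrophages. No marker of the other 6 lists was called, and over all 75 markers 15 were called as higher and 2 as lower. Of all 16321 genes 11.5% were called, 1422 as higher and 458 as lower. The part of these calls that was higher, 75.6%, was 50.5% after quantile normalization and 45.7% after median ratio scaling. The part of these lists in the strain difference of Ctgf and Tgfb2 was not tested.

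The genes whose pattern was most like each member were found by Pearson correlation of mean log2(FPKM + 1) over the 16 groups, as a description. These groups share strain, sex, injection and air, so a gene that responds to hyperoxia resembles others that do. Ctgf was most like Gm15270, the gene that overlaps it on the opposite strand (r = 0.99), and S1pr1, a receptor of sphingosine 1-phosphate (r = 0.983). Inhba was most like Tubb6 (r = 0.989) and Srm (r = 0.987), and Tgfbr2 most like Aff4 (r = 0.983) and Gatad2a (r = 0.982). For Tgfbr1 the closest were Ptbp3 (r = 0.963) and Whsc1l1 (r = 0.951), and for Bambi Dstyk (r = 0.958) and Lingo1 (r = 0.955). The ligands had looser neighbours, with Sema4c (r = 0.906) and the innate immune receptor Tlr2 (r = 0.889) for Tgfb1, Gprc5a (r = 0.884) and Pdzrn3 (r = 0.883) for Tgfb2, and Gm10602 (r = 0.798) and Jph2 (r = 0.780) for Tgfb3. Smad3 was most like F2rl1 (r = 0.912) and Cobl (r = 0.898), and Smad7 most like Extl3 (r = 0.851) and Dhx9 (r = 0.811).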

How the data were processed

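Lung RNA of 48 mice was sequenced by the authors. They aligned reads with GSNAP to mm10 and derived values with Cufflinks, and the deposited table holds FPKM per gene and mouse for 47561 genes. FPKM is relative to library and gene length, so no count test was used and counting error is unknown. The annotation release, the treatment of reads with several matches and the strand setting are not given in the sources used here. All 48 columns were used. Akap5, with failed estimates in 7 mice, was left out, and chromosomes X, Y and M are at 0 throughout. No 2 libraries were identical.

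Linear models of log2(FPKM + 1) used limma 3.58.1 under R 4.3.3 (1 mean per group, eBayes with trend) for genes that reached 1 FPKM in 3 or more mice of the fit, with Benjamini-Hochberg adjustment over all genes tested. Effects were averaged over the strain and sex groups. Groups came from the sample labels. The fits were tested on simulated data. Ligand shares were compared with exact permutation tests, two-sided (SciPy 1.17.1). The members and gene lists were chosen with earlier results of these data known. Named genes were all 10 members, the pathway genes past the threshold without overlap in saline mice (at most 12), the 5 largest in each other comparison, and the 2 most like each member. One gene of the pathway list is not reported here and was left out of its counts. Coordinates are from GENCODE M21 on GRCm38 and promoters from RefSeq on GRCm38.p6.

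The alternatives were a pseudocount of 0.1, a filter of 0.1 FPKM in 3 or more mice or no filter, normalization by quantiles or by median ratios to the geometric mean, eBayes without trend, a fit of all 48 mice, and leaving out each mouse in turn. Leaving out C3HM mice 1 and 3 together was chosen after seeing the data.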

Additional observations from a re-analysis of the deposited data

Results flagged for a closer look

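Dixon's ratio was taken in 80 groups of 6 mice of 1 strain, injection and air. Independent normal values would exceed 0.625 in about 4 groups, but these groups pool both sexes and the genes share mice. Single values stood that far from the other 5 in 12 of the 80 groups, which is not a test against chance. In saline hyperoxia mice these were, for C3HF mouse 33, Tgfb1 at 111.3, Inhba at 4.19 and Smad3 at 11.93 FPKM, for C57BF mouse 43, Inhba at 5.573 and Tgfbr1 at 22.14, for C57BF mouse 44, Smad3 at 16.12, for C57BM mouse 19, Ctgf at 1173, and for C3HM mouse 9, Bambi at 4.523. In ATG mice they were Tgfb1 at 59.87 in C57BF mouse 48 and Tgfb2 at 20.08 in C3HM mouse 11, both in hyperoxia, and Smad7 at 24.17 in C3HF mouse 35 in hyperoxia and at 26.03 in C3HM mouse 5 in room air. Mouse 33 was also the mouse with the highest neutrophil marker sum among the saline hyperoxia mice, 5584.

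Tests of a difference between groups passed for 3 genes. The signed hyperoxia difference was lower in C3H than in C57B for Ctgf in saline mice (-1.20) and in ATG mice (-1.16), for Tgfb2 in saline mice (-0.71) and in ATG mice (-0.92), and for Tgfbr2 in ATG mice (-0.56). For Ctgf it was smaller with ATG than with saline (-0.81, and -0.67 without C3HM mice 1 and 3). The call for Tgfbr2 was lost under most other settings. That for Tgfb2 in saline mice was lost without some single mice.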

How the results depend on the processing

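No paired analysis was possible because each mouse carries its own number and groups share none. The absolute depth is unknown, and with 3 mice per group single mice weigh on the interactions. Over the other settings, 790 of the values for single genes kept their direction and side of the threshold, 36 lost and 10 gained significance and 12 changed sign. With 1 mouse left out in turn these were 2398, 113, 17 and 16. Sign changes were all in differences that missed the threshold. For Smad7 in saline hyperoxia the value was -0.11 after quantile normalization, -0.048 after median ratio scaling, -0.057 without C3HM mice 1 and 3, and between -0.063 and 0.058 with 1 mouse left out. For Tgfb2 in C3H it was -0.10 and -0.093 under the 2 scalings and -0.050 to 0.16 with 1 mouse left out. In ATG hyperoxia, Tgfb1 was at -0.16 and -0.065 under the scalings and -0.028 to 0.070 with 1 mouse left out, and Tgfb3 at -0.062 and -0.037, and -0.037 to 0.18. For the sex difference in room air, Tgfb3 was at 0.0027 and 0.025 under the scalings, 0.018 without mice 1 and 3, and -0.16 to 0.0082 with 1 mouse left out. With 1 mouse left out, the share difference in C3H was -0.582 to 5.24 percentage points for Tgfb1 and -2.12 to 0.687 for Tgfb2, and in C57B -13.2 to -6.62 for Tgfb3.

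Counts of all genes called moved as follows. Sex by hyperoxia went from 6 to 3 (quantile normalization), 2 (median ratio) and 306 (48 mice), and 2 to 1270 with 1 mouse left out. Strain by hyperoxia in saline mice went from 1880 to 2994 (48 mice), and 1400 to 3242. ATG in room air went from 3 to 5 (no filter, and without mice 1 and 3), and 3 to 32, ATG in hyperoxia from 868 to between 443 and 1096, and ATG by hyperoxia from 470 to 313 (no filter), and 243 to 1093. Strain in room air went from 1832 to 2982 (48 mice), and 1306 to 4021. Sex in room air went from 104 to 60 (FPKM of at least 0.1), 40 (no filter), 1915 (48 mice) and 30 (without mice 1 and 3), and 20 to 3640. Sex by strain went from 0 to 5 (pseudocount 0.1), 2 (each looser filter, and no trend), 748 (48 mice) and 1 (without mice 1 and 3), and 0 to 2741. The highest of these ranges was reached without C3HM mouse 2 for each count but ATG in hyperoxia, and the cause was not tested.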
